A study of Danio rerio with 6 samples.

Results

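The dorsal organizer and axial mesoderm genes described here were *gsc*, *chrd*, *noto*, *nog1*, *dkk1b*, *frzb*, *foxa3*, *dharma*, *lhx1a* and *shha*, chosen by name. Of these 10 symbols, 8 each matched 1 Ensembl gene in the counts. *Nog1* and *shha* were listed only without their paralog suffix, under the bare names NOG and SHH, each of which belongs to a pair of identifiers, so the set held 12 of the 32057 genes. In these pairs it could not be told which identifier is *nog1* or *shha*, and both were kept. The filter on low counts was passed by 10 of the 12 identifiers, among 16126 genes tested.

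In the zebrafish gastrula the organizer, or embryonic shield, is the dorsal group of cells that patterns the body axis. Maternal β-catenin switches on its first genes in the dorsal blastoderm and yolk syncytial layer, and Nodal signals maintain it. Its cells secrete antagonists of Bmp and Wnt ligands, which oppose the ventral programme, and later form the prechordal plate and notochord, the axial mesoderm.

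All embryos were of the AB/TL line and were injected at the 1-cell stage with mRNA of zebrafish Mcpip1, an RNase that degrades transcripts. One group received the wild-type form (Mcpip1 WT) and the other the D112N mutant (Mcpip1 DN), which the study describes as catalytically inactive. Whole embryos that were alive at the shield stage, 6 hours after fertilization (6 hpf), were pooled, and poly(A) RNA of 3 pools per group was sequenced. Both groups carried injected Mcpip1 mRNA, and no uninjected library was analysed here. P-values measure the spread between these pools, and nothing in the labels says whether the pools came from separate clutches.

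The deposited values were counts of reads per gene, with a total on genes of 22581287 to 24662219 in Mcpip1 WT and 17686041 to 23944732 in Mcpip1 DN. *Zc3h12a* (ENSDARG00000005271) encodes Mcpip1, and its injected and endogenous transcripts were counted together. With no uninjected library as a baseline, its counts cannot check the injections. The study checked them by other means. It reports that quantitative PCR detected the injected transcript at the shield stage. It also reports fluorescence of mTurquoise, encoded on the same mRNA, in all injected embryos at that stage. Counts were normalized by scaling each library to the mean library size after a correction for composition (TMM, a method of edgeR). *Zc3h12a* had 170239, 22302 and 22767 normalized counts in Mcpip1 WT pools and 36491, 16111 and 7907 in Mcpip1 DN pools, each in the order of replicates 1, 2 and 3. Mcpip1 WT replicate 1 stood far above every other library, and the remaining values of the groups overlapped. The log2 fold change of *zc3h12a*, Mcpip1 WT over Mcpip1 DN, was 1.83 (unadjusted p = 0.0391 and adjusted p = 0.9998 in edgeR). The groups thus differed in mean *zc3h12a* counts as well as in the form of Mcpip1 injected. Of 10 identifiers of genes of differentiated tissues, which form later, 4 had enough counts to be tested. The globin gene *hbae1.1* and the lens gene *crygm2d1* were at 0 in all 6 libraries. Others were counted in all 6, as *ins* with 12 to 37 counts and *actc1b* with 18 to 127.

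Active Mcpip1 was compared with its inactive form to ask whether the expression of the organizer programme differed between the groups. No difference beyond the spread between pools was found for any of its tested genes. In edgeR's quasi-likelihood test, 0 of the 10 tested organizer genes were past the threshold of the study, which asks for a fold change over 1.5 and an unadjusted p under 0.05. That threshold was passed by 2.14% of all genes tested (0.874% higher and 1.27% lower in Mcpip1 WT). None of the 10 had an unadjusted p under 0.05 in edgeR, and DESeq2's Wald test also placed 0 past the threshold. After Benjamini-Hochberg adjustment, 0 of all genes tested had an adjusted p under 0.05, although 356 had an unadjusted p under 0.05. The log2 fold change of Mcpip1 WT over Mcpip1 DN was positive for 4 organizer genes and negative for 6. Their median was -0.17, and the median of all genes tested was 0.01. Groups overlapped for all 12 identifiers, and they did not overlap for 8.06% of all genes tested (Mcpip1 WT above in 3.97% and below in 4.08%). The intervals were wide, so a p above the threshold does not show that the groups were alike. In bulk RNA, fewer organizer cells and less RNA per cell cannot be told apart.

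**Figure D1:**
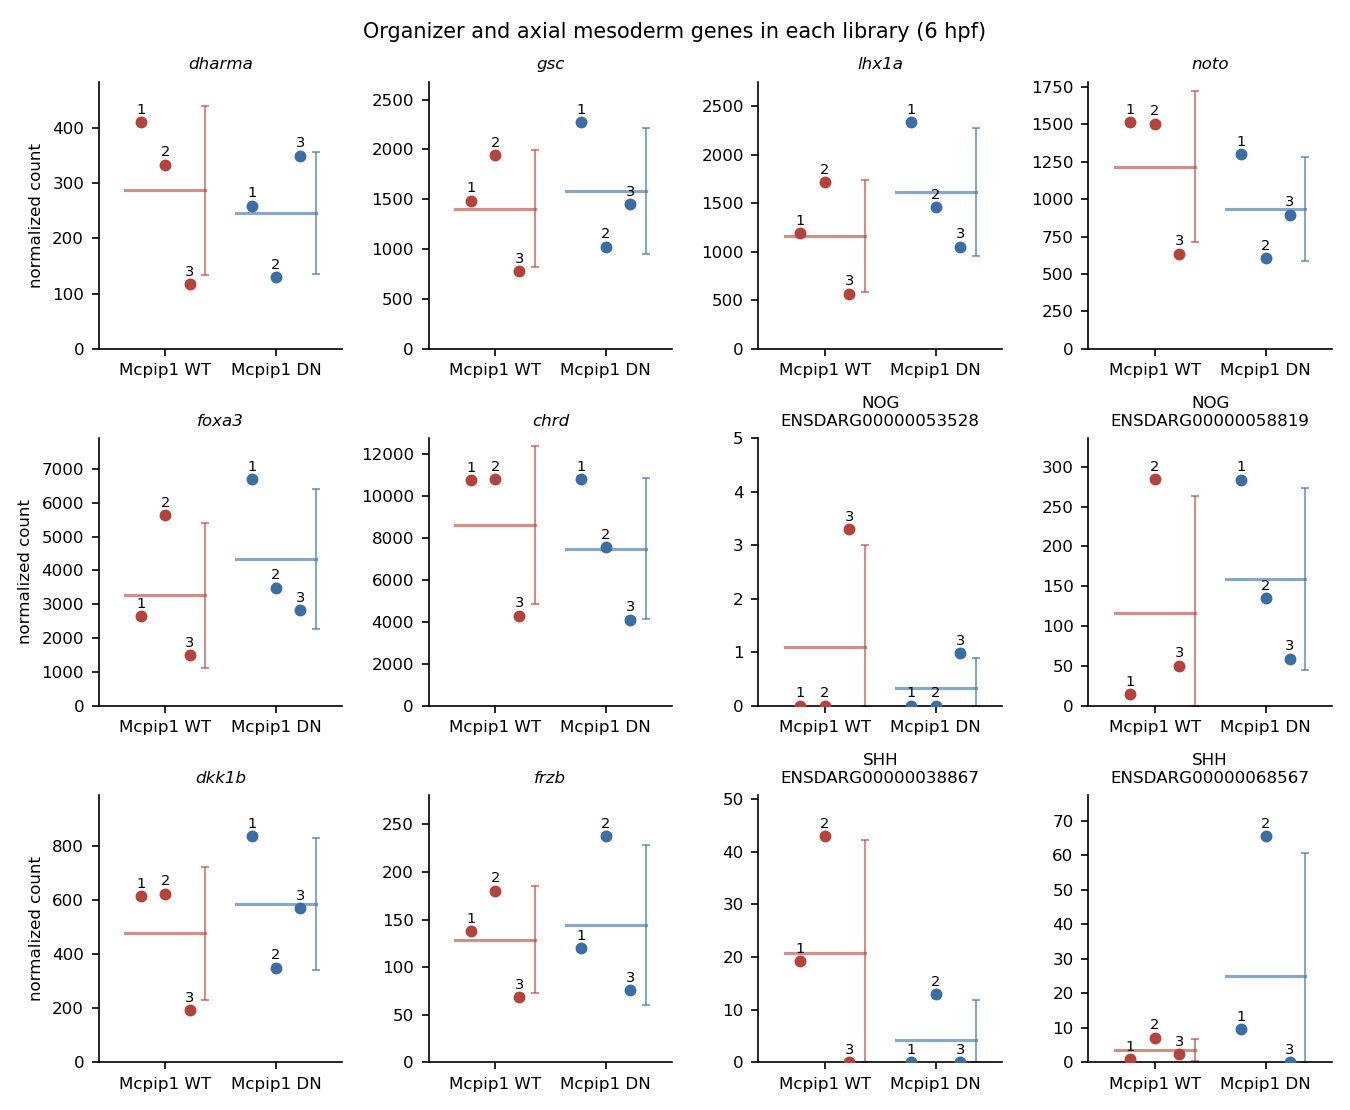
Normalized counts (y axis, linear, a scale of its own in each panel) of the 12 organizer and axial mesoderm identifiers in Mcpip1 WT and Mcpip1 DN; points are libraries with their replicate number, horizontal lines are group means, and vertical bars are SDs (n = 3), cut off at 0. The 2 groups overlap in every panel, and Mcpip1 WT replicate 3 is the lowest point for 6 genes, with 781 normalized counts for *gsc* against 1024 to 2272 in Mcpip1 DN.

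*Dharma* (ENSDARG00000040955) encodes a homeodomain repressor and is an early target of maternal β-catenin on the dorsal side. It had 409.6, 333 and 116 normalized counts in Mcpip1 WT pools and 259, 129.5 and 349 in Mcpip1 DN pools, each in the order of replicates 1, 2 and 3. The highest and the lowest library were thus both Mcpip1 WT, and the Mcpip1 DN libraries lay between them. The means were 286 ± 152 (SD, n = 3) and 246 ± 110.5, and the log2 fold change was 0.22 (standard error 0.53, 95% interval -0.95 to 1.38, unadjusted p = 0.688 and adjusted p = 1.00 in edgeR). Its sign turned to -0.13 without Mcpip1 WT replicate 1 and to -0.10 without Mcpip1 DN replicate 2.

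*Gsc* (ENSDARG00000059073), which encodes the homeodomain repressor Goosecoid of the prechordal plate, had 1485, 1945 and 781 normalized counts in Mcpip1 WT pools and 2272, 1024 and 1450.2 in Mcpip1 DN pools, each in the order of replicates 1, 2 and 3. Mcpip1 WT replicate 3 was the lowest library and Mcpip1 DN replicate 1 the highest, at 2.91 times its value. The means of 1404 ± 586 (SD, n = 3) and 1582 ± 634 differed by less than any pair of libraries of the same group. The log2 fold change was -0.17 (standard error 0.38, 95% interval -1.01 to 0.67, unadjusted p = 0.66 in edgeR), and its sign turned when either of these 2 extreme libraries was left out, to 0.11 without Mcpip1 WT replicate 3 and to 0.18 without Mcpip1 DN replicate 1.

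The LIM-homeodomain gene *lhx1a* (ENSDARG00000014018), expressed in the shield and needed in vertebrates for head organizer function, had the smallest p of the set. In the same order of replicates it had 1194, 1721 and 569.9 normalized counts in Mcpip1 WT pools and 2337, 1461 and 1055 in Mcpip1 DN pools. Here Mcpip1 DN replicate 1 was above, and Mcpip1 WT replicate 3 below, all libraries of the other group, and the remaining 4 overlapped. The means were 1162 ± 576 (SD, n = 3) and 1618 ± 655, and the difference on the log2 scale was -0.48 (standard error 0.41, 95% interval -1.38 to 0.43, unadjusted p = 0.27 and adjusted p = 1.00 in edgeR). The direction was negative under all 13 alternatives, with -0.87 in the fit without Mcpip1 WT replicate 2 and -0.12 in the fit without Mcpip1 DN replicate 1 as its extremes.

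*Noto* (ENSDARG00000021201), the homeobox gene *floating head*, without which the notochord does not form, had a higher mean in Mcpip1 WT. It had 1513, 1503 and 635 normalized counts in Mcpip1 WT pools and 1299, 606 and 896 in Mcpip1 DN pools. Mcpip1 WT replicates 1 and 2 were the highest libraries, and Mcpip1 WT replicate 3 lay near the lowest one, Mcpip1 DN replicate 2. From means of 1217 ± 504 (SD, n = 3) and 933 ± 348, the log2 fold change was 0.38 (standard error 0.39, 95% interval -0.48 to 1.24, unadjusted p = 0.349 in edgeR). It stayed positive under all 13 alternatives, between 0.13 and 0.70 with a library left out.

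*Foxa3* (ENSDARG00000012788) encodes a forkhead factor of the axial mesoderm and endoderm. Its normalized counts were 2639, 5643 and 1498 in Mcpip1 WT pools and 6705, 3492 and 2832 in Mcpip1 DN pools. Mcpip1 WT replicate 2 lay among the Mcpip1 DN libraries, whereas Mcpip1 WT replicates 1 and 3 lay below all 3 of them. The means were 3260.3 ± 2141 (SD, n = 3) and 4343 ± 2072, and the log2 fold change was -0.41 (standard error 0.46, 95% interval -1.42 to 0.59, unadjusted p = 0.386 and adjusted p = 1.00 in edgeR). Without Mcpip1 WT replicate 2 it was -1.07 and past the threshold (unadjusted p = 0.0231, adjusted p = 1.00 in edgeR), and without Mcpip1 DN replicate 1 it was 0.04.

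**Figure D2:**
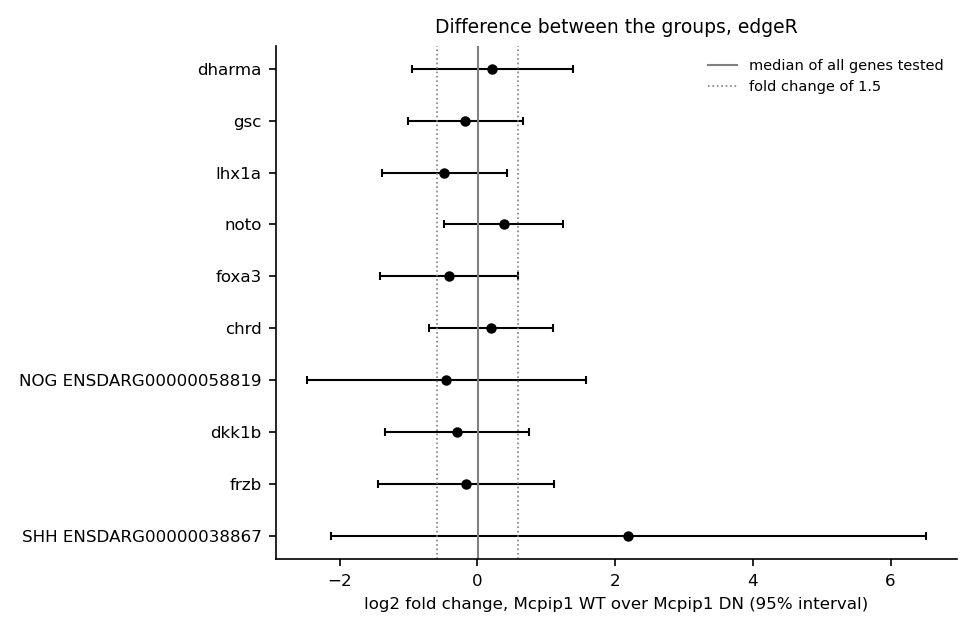
Log2 fold change of Mcpip1 WT over Mcpip1 DN (x axis) for the 10 tested organizer genes (y axis), from edgeR on all 6 libraries; bars are 95% intervals, the solid line is the median of all genes tested (0.01) and the dotted lines mark a fold change of 1.5. Every interval crosses 0, from *lhx1a* at -0.48 to an SHH identifier at 2.19, which has the widest interval.

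Among the secreted antagonists, *chrd* (ENSDARG00000006110) encodes Chordin, which binds Bmp ligands outside the cell and whose loss ventralizes the embryo. It had 10739, 10789 and 4279.8 normalized counts in Mcpip1 WT pools and 10785, 7542 and 4096 in Mcpip1 DN pools, in the order of replicates 1, 2 and 3. Libraries of both groups thus lay near the top, and replicate 3 was the lowest in each. The means were 8603 ± 3744 (SD, n = 3) and 7474 ± 3345, and on the log2 scale they differed by 0.20 (standard error 0.41, 95% interval -0.70 to 1.105, unadjusted p = 0.63 in edgeR). The value went from -0.11 without Mcpip1 DN replicate 3 to 0.56 without Mcpip1 DN replicate 1.

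Noggin, the protein of NOG genes, also binds Bmp ligands. The identifier ENSDARG00000058819 had most of the counts of the pair, with 14.2, 285 and 50.4 normalized counts in Mcpip1 WT pools and 284, 135 and 58.9 in Mcpip1 DN pools. Its lowest and its highest library were both Mcpip1 WT and differed 20.1-fold. The log2 fold change was -0.45 (standard error 0.92, 95% interval -2.47 to 1.57, unadjusted p = 0.634 in edgeR). It was -2.28 and past the threshold without Mcpip1 WT replicate 2 (unadjusted p = 0.0231, adjusted p = 1.00 in edgeR), and it turned to 0.08 without Mcpip1 WT replicate 1 and to 0.26 without Mcpip1 DN replicate 1. The other identifier, ENSDARG00000053528, had 0, 0 and 4 counts in Mcpip1 WT pools and 0, 0 and 1 in Mcpip1 DN pools. Because a library at 0 allows up to 3 counts, no difference was detectable for this identifier at this depth. The exact permutation test, on normalized counts with each 0 kept as 0, gave a 2-sided p = 1.

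*Dkk1b* (ENSDARG00000045219) encodes a secreted antagonist of the Wnt co-receptors Lrp5 and Lrp6 that promotes head formation. It had 614, 624 and 193 normalized counts in Mcpip1 WT pools and 837, 351 and 569 in Mcpip1 DN pools. The Mcpip1 WT libraries fell within or below the Mcpip1 DN range, with replicate 3 alone below it. With means of 477 ± 246 (SD, n = 3) and 586 ± 244, the log2 fold change was -0.30 (standard error 0.48, 95% interval -1.35 to 0.76, unadjusted p = 0.549 in edgeR). It turned to 0.07 without Mcpip1 WT replicate 3 and to 0.05 without Mcpip1 DN replicate 1.

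*Frzb* (ENSDARG00000018383), whose product is a secreted Frizzled-related protein that binds Wnt ligands, had 138, 180.2 and 68.5 normalized counts in Mcpip1 WT pools and 119.8, 238 and 75.5 in Mcpip1 DN pools. Replicate 3 was the lowest and replicate 2 the highest library in both groups. The means were 129 ± 56.4 (SD, n = 3) and 144 ± 83.9. The log2 fold change was -0.17 (standard error 0.58, 95% interval -1.45 to 1.11, unadjusted p = 0.781 in edgeR) and turned to 0.14 without Mcpip1 WT replicate 3 and to 0.38 without Mcpip1 DN replicate 2.

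The SHH genes encode Hedgehog ligands, which the axial mesoderm and later the notochord secrete to pattern the neural tube and somites, and both identifiers had few counts at 6 hpf. ENSDARG00000038867 had 19, 42 and 0 counts in Mcpip1 WT pools and 0, 14 and 0 in Mcpip1 DN pools. It was thus counted in 3 of the 6 libraries, of both groups. Its log2 fold change, 2.19 (standard error 1.96, 95% interval -2.13 to 6.51, unadjusted p = 0.288 in edgeR), rests on these 3 libraries. It was 1.096 without Mcpip1 WT replicate 2, and 7.36 (unadjusted p = 0.05002 in edgeR) without Mcpip1 DN replicate 2, where both remaining Mcpip1 DN libraries were at 0 and the fitted value is no measure of size. The filter was not passed by ENSDARG00000068567, with 1, 7 and 3 counts in Mcpip1 WT pools and 7, 71 and 0 in Mcpip1 DN pools. Most of its counts lay in Mcpip1 DN replicate 2, and the groups overlapped (exact permutation test, 2-sided p = 0.5, where 0.1 is the smallest that 3 libraries against 3 allow).

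Libraries of the same group also differed from each other. For this description each gene was put on the log2 scale of CPM, the count scaled to an equal library size, and centred on its own mean over the 6 libraries, for the 9 organizer genes with a count in every library. Mcpip1 WT replicate 3 was the lowest library for 6 of the 9 genes and among the lowest pair for 9 of 9. Over the 14501 tested genes with a count in every library, it was the lowest for 15.4% and among the lowest pair for 33.0%. Mcpip1 WT replicate 2 was among the highest pair for 8 of the 9 genes (34.1% of those 14501 genes) and Mcpip1 DN replicate 1 for 6 (33.7%). The medians of the 9 centred values were 0.15, 0.53 and -0.84 in Mcpip1 WT pools and 0.69, 0.03 and -0.25 in Mcpip1 DN pools, by replicate number. The pools with the highest and the lowest medians of Mcpip1 WT were thus farther apart than any Mcpip1 DN pool from another. Of all 6 pools, Mcpip1 DN replicate 1 had the highest median and Mcpip1 WT replicate 3 the lowest, so the widest gap lay between the groups. Since the 9 genes share these libraries, they are not 9 independent measurements of a pool.

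**Figure D3:**
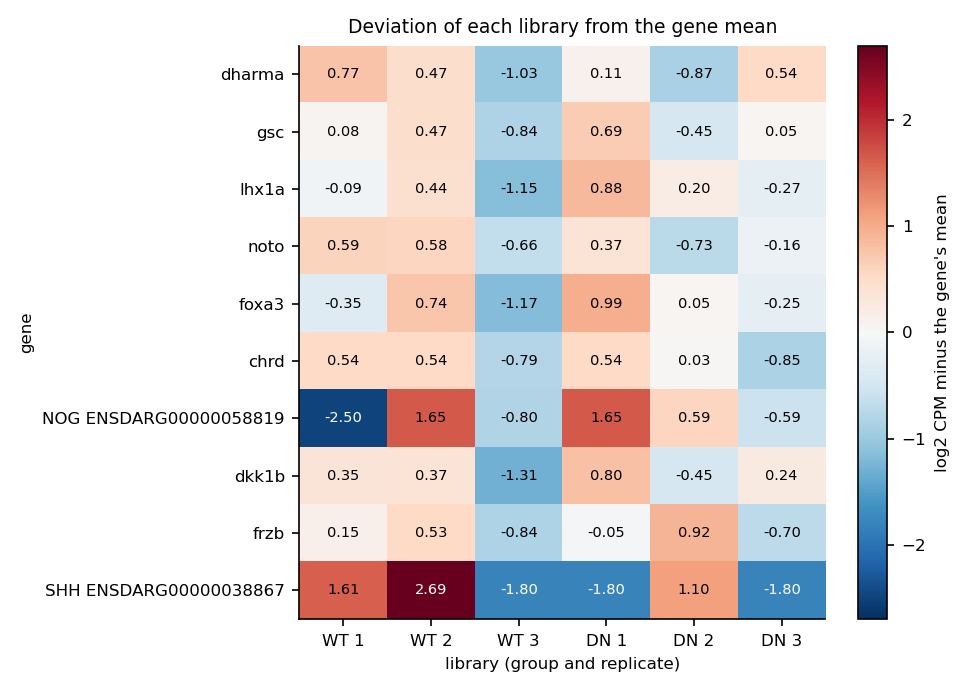
Log2 CPM minus the mean of the gene over the 6 libraries (colour and printed value) for the 10 tested organizer genes (rows) in the 6 libraries (columns). Mcpip1 WT replicate 3 is below the mean of every gene, from -0.66 for *noto* to -1.80 for an SHH identifier that it shares with other libraries at 0, and Mcpip1 WT replicate 2 is above the mean of every gene.

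Not every gene followed this order. For *chrd*, Mcpip1 DN replicate 3 was slightly lower than Mcpip1 WT replicate 3, with centred log2 CPM of -0.85 and -0.79. *Dharma* and *noto* were lowest or near lowest in Mcpip1 DN replicate 2, at -0.87 and -0.73, where *frzb* was highest, at 0.92. The NOG identifier ENSDARG00000058819 was lowest in Mcpip1 WT replicate 1, at -2.50, a library in which *dharma* (0.77) and *noto* (0.59) were high. The profiles most alike were those of *foxa3* and *lhx1a*, with a root mean square difference of 0.18 over the 6 libraries, followed by *gsc* and *dkk1b* (0.24) and *gsc* and *noto* (0.30).

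The genes of all those tested with the profile nearest to each organizer gene were named by the same measure of difference over the 6 libraries. For *gsc* these were CEBPB (0.09) and si:ch211-125o16.4 (0.10), for *chrd* RPS2 (0.12) and ZMAT2 (0.14), and for *noto* CRCP (0.10) and *rassf7b* (0.12). STARD13 was among the nearest pair of both *foxa3* (0.12) and *lhx1a* (0.13), next to si:ch73-338a16.3 for *foxa3* (0.11) and si:ch73-311h14.2 for *lhx1a* (0.13). *Dharma* was nearest to MAP7D2 (0.16) and TMC2 (0.20), *dkk1b* to si:zfos-323e3.4 (0.14), and *frzb* to *svilc* (0.10) and si:dkeyp-2e4.3 (0.15). The neighbours of the sparse identifiers were farther away. They were WNT3A (0.22) and *acot19* (0.30) for NOG ENSDARG00000058819, and si:dkey-28d5.14 (0.31) and si:ch211-248g18.6 (0.39) for SHH ENSDARG00000038867. No organizer gene was among the nearest pair of another.

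Leaving out single libraries showed how far each fold change rested on 1 pool. Of the 10 tested organizer genes, *lhx1a*, *noto* and SHH ENSDARG00000038867 kept their sign in all 6 of these fits, and the other 7 changed it in at least 1. Mcpip1 DN replicate 1 turned the sign of *gsc*, *dkk1b*, *foxa3* and the NOG identifier when it was left out, and Mcpip1 WT replicate 3 that of *gsc*, *dkk1b* and *frzb*. Without Mcpip1 WT replicate 3, 0 organizer genes were past the threshold in either direction, as with all 6 libraries. Without Mcpip1 WT replicate 2, *foxa3* and NOG ENSDARG00000058819 were past it, both lower in Mcpip1 WT.

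**Figure D4:**
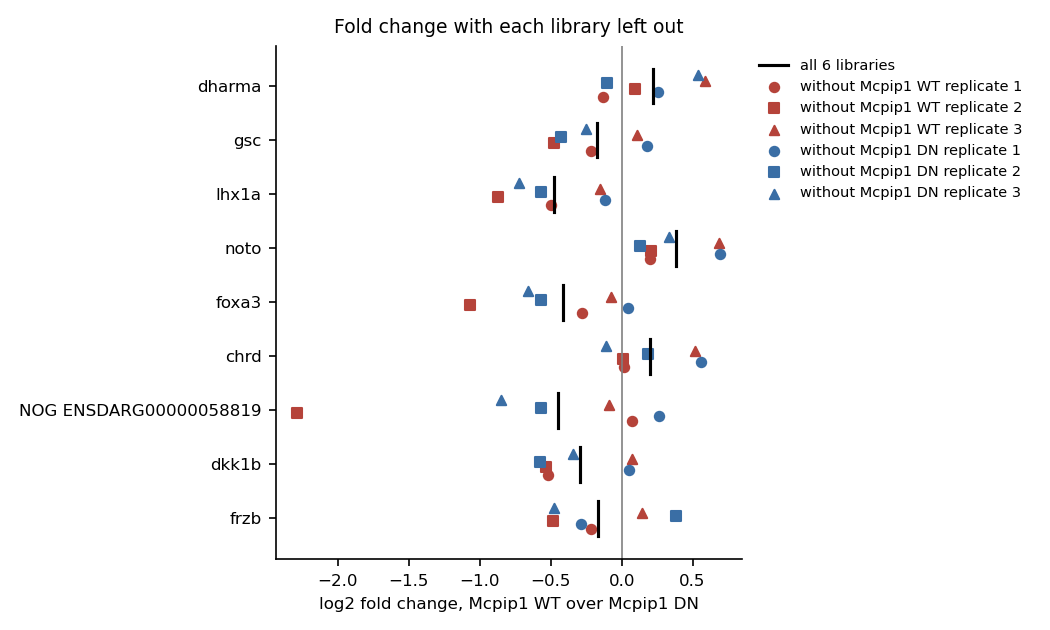
Log2 fold change of Mcpip1 WT over Mcpip1 DN (x axis) for the 9 organizer genes with a count in every library (y axis), with all 6 libraries (black line) and with each library left out (coloured symbols). The symbols lie on both sides of 0 for 7 of the 9 genes, and NOG ENSDARG00000058819 moves farthest, to -2.28 without Mcpip1 WT replicate 2.

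Other genes of the organizer and axial mesendoderm were taken from a list written from general knowledge, but with earlier results of these data known. By their median they were also highest in Mcpip1 WT replicate 2 and Mcpip1 DN replicate 1 and lowest in Mcpip1 WT replicate 3. This order is thus no independent evidence. Of 21 matched genes 17 were tested, 11 with a positive and 6 with a negative log2 fold change and a median of 0.08. In this list 0 were past the threshold higher in Mcpip1 WT and 1 was past it lower, *fgf24* (ENSDARG00000037677), an Fgf ligand of the mesoderm. *Fgf24* had 110.5, 117 and 59.5 normalized counts in Mcpip1 WT pools and 234, 232 and 192 in Mcpip1 DN pools, so the groups did not overlap. Its log2 fold change was -1.20 (standard error 0.47, unadjusted p = 0.0261 and adjusted p = 1.00 in edgeR), and it missed the threshold when Mcpip1 WT replicate 3 (-0.95) or Mcpip1 DN replicate 1 (-1.15) or 2 (-1.17) was left out. *Tbxta* (ENSDARG00000101576), named after its values were seen, had 8696, 14035 and 2981 normalized counts in Mcpip1 WT pools and 13343, 7787 and 5063 in Mcpip1 DN pools. The log2 fold change of *tbxta* was -0.03. Its highest library was Mcpip1 WT replicate 2 and its lowest Mcpip1 WT replicate 3, as for the median of this list. The median of the centred values of the 17 genes was 0.21, 0.67 and -0.91 in Mcpip1 WT pools and 0.60, -0.17 and -0.37 in Mcpip1 DN pools.

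Upstream of the organizer, 17 of 18 genes of the maternal dorsal signal and β-catenin pathway were tested, and 0 were past the threshold in either direction. Their median log2 fold change was -0.18, with 3 positive and 14 negative. The smallest p belonged to *dvl2* (ENSDARG00000056184), a Dishevelled protein that relays Wnt signals, with a log2 fold change of -0.55 (unadjusted p = 0.108 in edgeR). Of 13 Nodal relay genes, all tested, 5 had a positive and 8 a negative log2 fold change (median -0.45), and 2 were past the threshold, both lower in Mcpip1 WT. These were *tdgf1* (ENSDARG00000035095), the Nodal co-receptor, at -1.25 (standard error 0.31, unadjusted p = 0.00211), and *foxh1* (ENSDARG00000055630), a transcription factor that works with the Nodal effector Smad2, at -0.75 (standard error 0.29, unadjusted p = 0.0252). Both had an adjusted p of 1.00 in edgeR. The study named both from these same libraries, so their counts are no independent evidence of a direction for the list. For *foxh1*, the study also reports that quantitative PCR bore out the lower level in Mcpip1 WT embryos. It describes no such measurement of *tdgf1*, and does not say whether the embryos measured came from the sequenced pools. *Foxh1* missed the threshold when any of 4 libraries (Mcpip1 WT replicate 1 or 3, Mcpip1 DN replicate 1 or 3) was left out, with its smallest value, -0.54, without Mcpip1 WT replicate 1, and *tdgf1* passed it with each library left out.

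By its median, the ventral programme, which the organizer opposes, did not show the opposite order of libraries, but single genes differed. Of its 16 identifiers 14 were tested, with 8 positive and 6 negative log2 fold changes, a median of 0.04, and 0 past the threshold in either direction. Nearest to it was *cdx4* (ENSDARG00000036292), a homeobox gene of the posterior body, at -0.91 (unadjusted p = 0.0517 and adjusted p = 1.00 in edgeR). *Cdx4* passed the threshold with DESeq2 on the same genes (unadjusted p = 0.0381) and without Mcpip1 WT replicate 2 (-1.42). Both identifiers named *wnt8a*, a ventrolateral Wnt ligand that is a defining gene of the margin, were at 0 counts in all 6 libraries. The gene is known to be expressed in the margin at this stage, so this 0 is not read as absence, and how reads of overlapping gene models were counted was not tested. The median centred values of the 14 genes were -0.02, 0.26 and -0.30 in Mcpip1 WT pools and 0.29, -0.07 and -0.06 in Mcpip1 DN pools, lowest in the same pool as the organizer genes. *Vent*, *ved*, *eve1*, *bmp7a* and *cdx4* were lowest in that pool. *Szl* was highest there, at 885 normalized counts, and lowest in Mcpip1 WT replicate 1, at 265. *Gata2*, *tp63* and *tll1* were also lowest in Mcpip1 WT replicate 1. *Vox* and *drl* were lowest in Mcpip1 DN replicate 2, and *bmp4*, *bmper* and *smad5* in Mcpip1 DN replicate 3. These genes were looked at after their values were seen.

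The sums of the yolk syncytial and enveloping layer markers were lowest in the same pool as the organizer genes. The sum of the maternal egg transcripts ran in the opposite order. By the median of centred values the reversal was not complete. Mcpip1 WT replicate 1 was above 0 both for the maternal egg transcripts (0.18) and for the 10 tested organizer genes (0.25). The 12 organizer identifiers together had 848, 1042 and 370.3 CPM in Mcpip1 WT pools and 1125, 680.0 and 514 in Mcpip1 DN pools, by replicate number. *Chrd* was the largest part of this sum in every library. The 8 yolk syncytial layer markers, of which *gata5*, *gata6* and *sox32* are also expressed in the embryo proper, together ranged from 432 to 1119.6 CPM in Mcpip1 WT and from 590.4 to 1031 in Mcpip1 DN. The 10 markers of the enveloping layer, the outer epithelium of the embryo, ranged from 6416 to 12038 CPM in Mcpip1 WT and from 8969 to 14225 in Mcpip1 DN. Both sums were lowest in Mcpip1 WT replicate 3. Within the yolk syncytial list, *mxtx2* was lowest in Mcpip1 DN replicate 2 and the sparsely counted *apoa1b* in Mcpip1 DN replicate 3, and the other markers were lowest in Mcpip1 WT replicate 3. Mcpip1 WT replicate 2 was the highest library for the yolk syncytial layer and Mcpip1 DN replicate 1 for the enveloping layer. The 12 maternal egg transcripts, which the embryo clears as its own genes take over, together had 3349, 2844 and 4979 CPM in Mcpip1 WT pools and 2667, 3508 and 3998 in Mcpip1 DN pools. This sum was thus highest in the pool where the organizer genes were lowest, and lowest in Mcpip1 DN replicate 1 and Mcpip1 WT replicate 2. Its largest parts in Mcpip1 WT replicate 3 were *h1m* and *ccnb1* (45218 and 25448 normalized counts). *H1m* was highest in that pool, but *ccnb1* was higher in Mcpip1 DN replicates 2 and 3 (26172 and 30923). Other transcripts of the list also departed from the sum. *Cnot8* was highest in Mcpip1 DN replicate 3, and *gdf9* and *zp3b* were highest in Mcpip1 WT replicate 1. *Zp2.1* and *zp3b* were lowest in Mcpip1 WT replicate 3, *zp2.1* was highest in Mcpip1 DN replicate 1, and *zar1* was highest in Mcpip1 WT replicate 2. The 6 germ cell markers followed neither order, with 484, 478 and 544 CPM in Mcpip1 WT pools and 649, 537 and 489.9 in Mcpip1 DN pools. Mcpip1 WT replicate 3 also had the largest number of genes with a count, 21337 against 18249 to 20247 in the other libraries. None of the markers of these 4 lists was at 0 in every library. The part of these markers, and of the number of genes counted, in the order of the organizer genes was not tested.

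**Figure D5:**
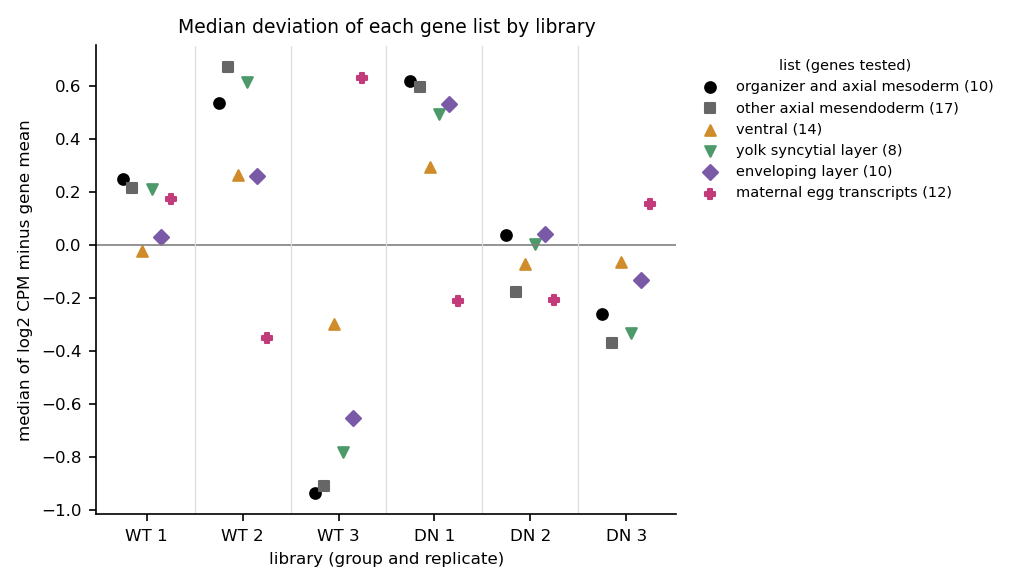
Median over the tested genes of each list of log2 CPM minus the mean of the gene (y axis) in each of the 6 libraries (x axis); each symbol is a list, with its number of genes in the legend. In Mcpip1 WT replicate 3 the organizer, axial, ventral, yolk syncytial and enveloping layer lists are lowest (-0.93 for the organizer genes) and the maternal egg transcripts highest (0.63). None of the lists not plotted is lowest there. In that library the β-catenin list is at 0.04, the Nodal list at 0.0009 and the germ cell markers at 0.43. The gastrulation list is lowest in Mcpip1 WT replicate 1, at -0.38.

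Between the groups these lists had few genes past the threshold. Among the 10 enveloping layer markers, 1 was past it, *ppl* (ENSDARG00000101043), which encodes periplakin of cell junctions and was lower in Mcpip1 WT, with a difference of -0.75 on the log2 scale (standard error 0.31, unadjusted p = 0.0328 and adjusted p = 1.00 in edgeR). *Ppl* missed the threshold when any of 4 libraries (Mcpip1 WT replicate 1 or 3, Mcpip1 DN replicate 1 or 2) was left out, at -0.81 and -0.51 without the first pair and -0.55 and -0.83 without the second. The medians were -0.24 over the enveloping layer, 0.03 over the yolk syncytial layer and 0.27 over the maternal egg transcripts. In the last 2 of these lists 0 genes were past the threshold, and the smallest p belonged to *mxtx2* (ENSDARG00000015906), a regulator of the yolk syncytial layer, at 0.77 (unadjusted p = 0.117), and to the claudin gene *cldnd* (ENSDARG00000006580) at 0.67 (unadjusted p = 0.0968). *Mxtx2* passed the threshold without Mcpip1 WT replicate 3 (1.06), without Mcpip1 DN replicate 1 (1.39) and in edgeR without the filter (0.76), and *cldnd* passed it without Mcpip1 WT replicate 2 (0.93) and in edgeR without the filter (0.67). Of 9 tested genes listed as starting during gastrulation, 3 had a positive and 6 a negative log2 fold change (median -0.31). In this list 0 were past the threshold, with the smallest p for the neural gene *sox19a* (ENSDARG00000010770) at -0.83 (unadjusted p = 0.0549 in edgeR). At 6 hpf *sox19a* already had 2808 to 7679 counts in every library, and *irx7* had 548 to 1199. *Msgn1* (163 to 616), *her5* (117 to 345) and *ripply1* (40 to 290) were also counted in every library. The list name may not hold for these genes. *Sox19a* passed the threshold with DESeq2 on the same genes (unadjusted p = 0.0403) and without Mcpip1 WT replicate 2 (-1.46), a fit in which 3 genes of this list were lower. Over 6 germ cell markers the median was 0.03, and over the 4 tested genes of differentiated tissues it was -0.47. In both lists 0 were past the threshold, and the smallest p belonged to *ca15b* (ENSDARG00000040510, unadjusted p = 0.191) and the muscle actin gene *actc1b* (ENSDARG00000099197, unadjusted p = 0.225).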

How the data were processed

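The authors sequenced poly(A) RNA on the Ion Proton, and the deposited values are raw counts of reads per Ensembl gene, without normalization. The submitters' processing notes name STAR 2.7.10a, Bowtie2 2.4.4, HTSeq, DESeq2 and GRCz11. The HTSeq version, the Ensembl release and the strand setting are not given in the sources used here, so reads of antisense, overlapping and near-identical genes could have been divided among them or left uncounted. Between 16.5% and 26.1% of the counts of a library were on no gene and were left out. No pair of libraries was a duplicate, with 1.19% to 1.68% of genes at identical counts.

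Groups and replicate numbers came from the sample titles. Genes were named by a table of Ensembl identifiers, in which 28988 of the 32057 had a symbol. No coordinates or gene lengths were used, so levels were not compared between genes, and no sequences are shown.

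Tests used edgeR 4.0.16 and limma 3.58.1 under R 4.3.3. Genes were filtered with filterByExpr (minimum count 10), scaled by TMM and tested with glmQLFit and glmQLFTest without covariates, over all 16126 genes. Standard errors and 95% intervals came from the F statistic. Centred log2 CPM used a prior count of 2. Exact permutation tests covered the 20 assignments of 6 libraries. The tests were also tried on counts simulated from the fit to these data.

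The organizer genes and all gene lists were chosen with earlier results of these data known. Named are the organizer genes, *zc3h12a*, list genes past the threshold or otherwise with the smallest p, and the 2 genes with the profile nearest to each tested organizer gene, of which 1 is not reported here. Alternatives were DESeq2 1.42.0 (Wald test, with the same filter or with every gene that had a count) and its size factors, minimum counts of 1 and 30, normalization without *zc3h12a*, the replicate number as a block, an adjusted p under 0.05, and each library left out.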

Additional observations from a re-analysis of the deposited data

How the results depend on the processing

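The organizer genes past the threshold numbered 0 in both directions with all 6 libraries, and this held under every alternative except the fit without Mcpip1 WT replicate 2, so that with a library left out the number lower in Mcpip1 WT ranged from 0 to 2. SHH ENSDARG00000038867 was not tested at a minimum count of 30, and the SHH and NOG identifiers below the filter were limited by counts near 0.

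Over the fits that left out a library, the log2 fold change ranged from -0.48 to 0.18 for *gsc*, from -0.11 to 0.56 for *chrd*, from -2.28 to 0.26 for NOG ENSDARG00000058819, from -0.58 to 0.071 for *dkk1b*, from -0.49 to 0.38 for *frzb*, from -1.07 to 0.043 for *foxa3*, from -0.13 to 0.59 for *dharma* and from 1.096 to 7.36 for SHH ENSDARG00000038867. The other alternatives turned no sign of an organizer gene.

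Of all genes, 141 were higher and 204 lower in Mcpip1 WT. These numbers were 296 and 328 in DESeq2 and 336 and 432 in edgeR when all 24567 genes with a count were tested, 0 and 0 at an adjusted p under 0.05, and 69 to 291 and 75 to 512 with a library left out. The lowest of these came without Mcpip1 WT replicate 1, and the highest without Mcpip1 WT replicate 3 and replicate 2. At an adjusted p under 0.05, the 1 lower gene of the axial mesendoderm list and the 2 of the Nodal list became 0. With a library left out, the axial list had 0 to 3 higher (3 without Mcpip1 DN replicate 1, *ndr1*, *mixl1* and *cyp26a1*) and 0 to 3 lower, the Nodal list 0 to 1 higher and 1 to 3 lower, the β-catenin list 0 to 1 lower, and the ventral list 0 to 1 in each direction. The list of genes taken to start during gastrulation had 0 to 3 lower (3 without Mcpip1 WT replicate 2, *sox19a*, *msgn1* and *ripply1*). The yolk syncytial list had 0 to 2 higher (2 without Mcpip1 WT replicate 3, *mxtx1* and *mxtx2*). The maternal egg list had 0 to 2 higher (2 without Mcpip1 WT replicate 2, *cldnd* and *gdf9*) and 0 to 1 lower. *Cdx4* made the ventral list, and *sox19a* the gastrulation list, 1 lower with both DESeq2 fits and with edgeR without the filter. In edgeR without the filter the yolk syncytial list had 1 higher (*mxtx2*) and 1 lower (*apoa1b*), and the maternal egg list 1 higher (*cldnd*). Genes named here and not by the rule were named after their values were seen, and the cause of these changes was not tested.

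The replicate numbers are shared by the groups, but the labels tie them to no clutch or day. The deviations of same-numbered libraries from their group means correlated, across genes, at 0.0065, -0.083 and 0.301 for replicates 1, 2 and 3. Mcpip1 WT replicate 2 correlated best with Mcpip1 DN replicate 1 (0.291). With 3 libraries per group, these correlations cannot tell whether the numbers pair the samples. With the replicate number as a block, 144 genes were higher and 288 lower, the lower genes of the ventral list became 1 (*cdx4*), of the gastrulation list 3 (*msgn1*, *sox19a* and *ripply1*), of the Nodal list 3 (with *smad3*) and of the maternal egg list 1 (*ccnb1*), and 0 organizer genes were past the threshold.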
